A study of Mus musculus with 8 samples.

Results

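Cholesterol synthesis and its control by the transcription factor SREBP2 were examined in mouse bone marrow cultures treated with the protein pair S100A8/A9. The 28 genes were taken by symbol from the 55450 Ensembl genes of the deposited table, and each was found there and in the table of replicate 4. They comprise 8 genes of the mevalonate arm, 12 of the sterol arm, 4 of SREBP2 regulation, 3 of sterol transport and storage, and the oxysterol enzyme gene Ch25h. Bone marrow cells from mice with SS dry eye, an abbreviation that the labels do not spell out, were induced to dendritic cells. The 4 vehicle cultures were treated with PBS and the other 4 with the recombinant pair, calcium-binding proteins that myeloid cells release. Dose, time, strain, age, sex and genotype are not given in the sources used here, and neither is whether a replicate was a separate animal or culture. All groups came from the disease model, and cells of other mice were not analysed here. The titles abbreviate the cells as BMDMs, which commonly stands for macrophages, while the cell type field names dendritic cells.

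Cells make cholesterol from acetyl-CoA through mevalonate and squalene, and branches of the mevalonate arm supply isoprenoids for protein anchoring. When sterols in the endoplasmic reticulum are low, the escort protein SCAP carries SREBP2 to the Golgi, where it is cleaved and released to activate the synthesis genes. When sterols are high, INSIG proteins hold SCAP in the endoplasmic reticulum. In macrophages and dendritic cells the pathway is linked to interferon signaling, partly through 25-hydroxycholesterol, the product of CH25H, which blocks SREBP2 processing.

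Promoter sequences of 4 genes are shown because their transcripts were highest in the same libraries, a choice made after their values were seen. Windows from 250 bases before to 50 bases after the start site were taken from RefSeq (GRCm38.p6). The set searched held 29 windows for 23 of the 28 genes, and none for Fdps, Fdft1, Sqle, Stard4 and Npc1. A gene without a window in this set may still have an entry in RefSeq. Both strands were searched for TCACNCCAC (the core of the sterol regulatory element that SREBP2 binds), for CCAAT (the box bound by NF-Y) and for GGGCGG (the GC box bound by Sp1). No matches of different motifs overlapped in the 4 windows shown. Capitals mark the matches, and a match on the reverse strand reads as its reverse complement, ATTGG or CCGCCC. The windows are chr13:119690101-119690400 on the forward strand for Hmgcs1, chr5:28071162-28071461 on the forward strand for Insig1, chr5:4104648-4104947 on the reverse strand for Cyp51 and chr8:64733529-64733828 on the reverse strand for Msmo1.
Hmgcs1: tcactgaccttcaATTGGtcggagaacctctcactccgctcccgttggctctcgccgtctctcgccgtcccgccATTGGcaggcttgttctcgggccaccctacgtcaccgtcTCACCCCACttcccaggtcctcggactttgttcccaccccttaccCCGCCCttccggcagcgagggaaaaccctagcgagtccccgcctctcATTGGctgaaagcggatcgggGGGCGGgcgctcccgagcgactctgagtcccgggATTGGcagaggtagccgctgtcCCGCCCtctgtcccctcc
Insig1: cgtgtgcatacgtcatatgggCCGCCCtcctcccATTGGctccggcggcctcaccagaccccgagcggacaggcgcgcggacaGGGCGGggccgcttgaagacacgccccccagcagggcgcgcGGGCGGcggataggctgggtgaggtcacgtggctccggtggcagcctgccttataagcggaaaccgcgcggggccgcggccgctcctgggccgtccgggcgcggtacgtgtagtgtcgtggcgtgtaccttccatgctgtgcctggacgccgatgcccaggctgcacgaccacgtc
Cyp51: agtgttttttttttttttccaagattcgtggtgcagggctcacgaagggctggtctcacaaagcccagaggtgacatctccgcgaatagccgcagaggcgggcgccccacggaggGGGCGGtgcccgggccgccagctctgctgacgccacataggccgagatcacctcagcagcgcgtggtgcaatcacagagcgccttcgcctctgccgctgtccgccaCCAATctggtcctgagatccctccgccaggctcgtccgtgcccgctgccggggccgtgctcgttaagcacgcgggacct
Msmo1: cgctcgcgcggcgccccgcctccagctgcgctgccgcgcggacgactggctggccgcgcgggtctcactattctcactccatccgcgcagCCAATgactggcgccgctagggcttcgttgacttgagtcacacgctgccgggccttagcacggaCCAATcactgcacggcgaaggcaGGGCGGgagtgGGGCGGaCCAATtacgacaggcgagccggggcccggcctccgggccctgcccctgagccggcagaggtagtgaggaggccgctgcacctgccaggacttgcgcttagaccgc
TCACNCCAC was found in 1 of the 29 windows, that of Hmgcs1, where its first base lay 137 bases upstream of the start site. Of all 32851 windows in the set searched, 1.24% held it. CCAAT was found in 20 of the 29 windows, against 37.4% of all windows, and GGGCGG in 23 of the 29, against 35.7%. A match in these letters is a description of the window and not a measured binding site.

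Replicates 1 to 3 of both groups share 1 table of FPKM, fragments scaled to transcript length and library size, and replicate 4 of both groups comes from a second table that the authors made separately. FPKM summed to between 282921 and 303660 in replicates 1 to 3, with 11180 to 11487 genes at 1 FPKM or more. The replicate 4 values implied 31900000 reads for vehicle and 33400000 for S100A8/A9, while the depth of replicates 1 to 3 is unknown. In order of replicate, mean log2(FPKM + 1) of 8 macrophage markers was 6.20, 5.85 and 5.44 in the vehicle libraries, beside 6.31, 5.91 and 5.58 in those with S100A8/A9. That of 10 dendritic cell markers was 5.07, 4.80 and 5.05 in the vehicle libraries, beside 5.12, 4.76 and 5.12 in those with S100A8/A9. Of the 10 dendritic cell markers, Flt3 and Dpp4 stayed under 1 FPKM in these 6 libraries. The other 8 were expressed, in vehicle replicate 1 from 2.13 FPKM (Zbtb46) to 3790 FPKM (Cd74). The labelled cell type was thus borne out by most of its markers and not by all. In bulk RNA, fewer cells of a type and less RNA per cell cannot be told apart.

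S100A8/A9 against vehicle was the comparison of the design, and it asks which pathways the protein pair engages in these cells. Of the 28 genes, 27 reached 1 FPKM in 3 or more of these 6 libraries and were tested, and Ch25h was not. None of the 27 differed between S100A8/A9 and vehicle in limma-trend on log2(FPKM + 1) at an adjusted p under 0.05, where 0% of all 11387 genes tested were called. The smallest adjusted p among the 27 was 0.9998, and 0 of them were at an unadjusted p under 0.05, against 3.02% of all genes. With the replicate number as a block, limma called 0.518% of all genes, 0.501% higher and 0.0176% lower with S100A8/A9, and again 0 of the 27, with 1 of them, Idi1, at an unadjusted p under 0.05 against 7.97% of all genes. The log2 changes ran from -0.15 for Tm7sf2 to 0.28 for Idi1, with a median of 0.028 beside 0.025 over all genes tested. Of the 27, 17 were above 0 and 10 below, where 59.6% of all genes were above 0. The blocked 95% intervals of the 27 genes reached down to -0.39 (Tm7sf2) and up to 0.48 (Idi1), and those without the block reached from -0.62 (Lbr) to 0.79 (Idi1). These bounds are not adjusted for the number of genes, and log2(FPKM + 1) understates changes of low genes. Within pairs, 4 of the 27, namely Hmgcs1, Idi1, Sqle and Cyp51, had higher FPKM under S100A8/A9 in each of replicates 1 to 3, against 19.4% of all genes tested. Lbr and Tm7sf2, 2 of the 27, were lower in each pair, against 9.62%. In no gene of the 27 did the groups separate without overlap, while 4.71% of all genes did so with S100A8/A9 higher and 1.94% with it lower.

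**Figure D1:**
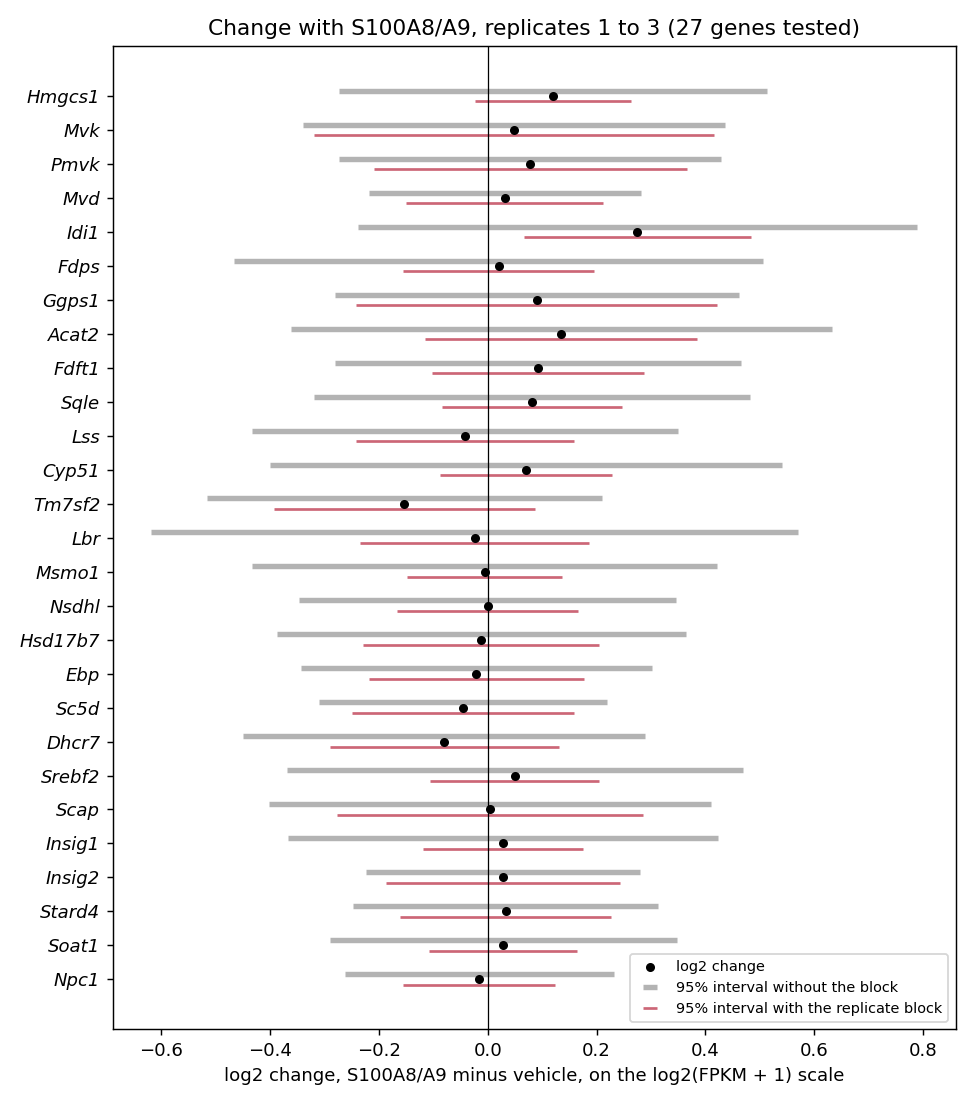
Log2 change from vehicle to S100A8/A9 on the log2(FPKM + 1) scale for the 27 tested genes, replicates 1 to 3 (n = 3 libraries per group). Black points are the changes, gray bars the 95% intervals without the replicate block and red bars those with it. Points lie between -0.15 (Tm7sf2) and 0.28 (Idi1), and of the red bars that of Idi1 lies wholly above 0.

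In the mevalonate arm, the mean log2 change of all 8 genes was above 0, with a median of 0.084, and none passed the test. Hmgcs1 (chr13:119690379-119708260, forward strand, mm10) encodes the synthase that makes HMG-CoA and is a classical SREBP2 target. It was at 23.7, 33.7 and 25.1 FPKM in vehicle replicates 1 to 3 and at 26.6, 35.6 and 27.4 FPKM under S100A8/A9. The group ranges overlapped, although each S100A8/A9 library lay above its vehicle partner, and the log2 change was 0.12 ± 0.17 (SE). In replicate 4, Hmgcs1 was at 11.4 FPKM under vehicle, against 11.1 FPKM under S100A8/A9, so this pair did not share the direction. Idi1 (chr13:8885501-8892451, forward strand) encodes the isomerase that balances the pair of activated isoprene units. Its vehicle values were 2.96, 5.04 and 4.34 FPKM and its S100A8/A9 values 3.72, 6.72 and 5.22 FPKM, within-pair ratios of 1.26, 1.33 and 1.20. The libraries of number 1 were the lowest of each group, and the spread between numbers exceeded the difference within them. The change of Idi1 was 0.28 ± 0.22 (SE) without the block and 0.28 ± 0.087 (SE) with it, with limma adjusted p-values of 0.9998 and 0.416. In replicate 4 its ratio was 0.955, with a 95% counting interval of 0.83 to 1.10 around 405 vehicle reads. Intervals of this kind cover counting error only and compare 2 libraries, not the conditions.

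Fdps, which encodes the synthase of farnesyl diphosphate at the branch point of the pathway, was at 31.5, 40.1 and 23.7 FPKM under vehicle, against 33.5, 36.3 and 25.6 FPKM under S100A8/A9. Its pairs did not share a direction, with ratios of 1.06, 0.905 and 1.08. Acat2, the cytosolic thiolase that starts the pathway, was at 4.59, 6.13 and 4.50 FPKM under vehicle, against 4.42, 8.14 and 4.87 FPKM under S100A8/A9. The library of S100A8/A9 replicate 2 stood highest, and the ratio in the replicate 4 pair was 1.23 (95% counting interval 1.08 to 1.41). The kinase genes Mvk and Pmvk had within-pair ratios below 1 in replicate 1 and above 1 in replicates 2 and 3, from 0.712 to 1.35 for Mvk and from 0.825 to 1.30 for Pmvk. Mvd, the decarboxylase gene, stayed between 13.2 and 15.6 FPKM in the 6 libraries, in overlapping groups. Ggps1 makes the geranylgeranyl donor for small GTPases and was the lowest of the 27 tested genes per length, at 2.49 ± 0.437 FPKM under vehicle, against 2.72 ± 0.582 FPKM under S100A8/A9 (SD, n = 3 each).

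In the sterol arm, 3 of the 12 genes had a mean change above 0 and 9 below it, with a median of -0.016, and none passed the test. Fdft1 encodes squalene synthase, which commits farnesyl diphosphate to sterols. It was at 7.40, 10.8 and 9.80 FPKM under vehicle, against 8.75, 11.6 and 9.52 FPKM under S100A8/A9, and the groups overlapped. Sqle, squalene epoxidase, is a rate-controlling step of this arm. It was at 15.0, 21.0 and 17.9 FPKM under vehicle, against 15.1, 21.8 and 20.4 FPKM under S100A8/A9. The lowest library of each group was replicate 1 and the highest replicate 2, so the groups overlapped over nearly their whole range. Cyp51, the lanosterol demethylase, was at 10.8, 17.0 and 14.1 FPKM under vehicle, against 11.5, 18.1 and 14.5 FPKM under S100A8/A9, a log2 change of 0.071 ± 0.20 (SE). Msmo1, the methylsterol oxidase, was at 22.3, 32.9 and 26.1 FPKM under vehicle, against 22.4, 32.8 and 25.6 FPKM under S100A8/A9. Its pair ratios of 1.01, 0.999 and 0.982 lay near 1, and its blocked 95% interval ran from -0.15 to 0.14.

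None of the remaining steps passed the test either. Lss, the lanosterol synthase that closes the rings, was at 7.08 ± 1.61 FPKM under vehicle, against 6.79 ± 0.998 FPKM under S100A8/A9 (SD, n = 3 each). Nsdhl and Hsd17b7, which act in the removal of methyl groups at the fourth carbon of the sterol, had log2 changes of -0.00023 and -0.012. Ebp, Sc5d and Dhcr7 encode enzymes of late steps that act on the double bonds of the sterol rings. Their log2 changes were -0.021, -0.046 and -0.08. Mutations in DHCR7 cause a human disorder in which 7-dehydrocholesterol accumulates. In replicate 4, Dhcr7 had a ratio of 0.903 (95% counting interval 0.833 to 0.98) and Ebp a ratio of 0.876 (0.808 to 0.949), while in replicate 3 both had ratios above 1, at 1.09 and 1.11.

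Lbr and Tm7sf2 encode the 2 sterol C14-reductases, and LBR is also a protein of the inner nuclear membrane that shapes the nucleus of granulocytes. Lbr was at 2.74, 4.36 and 5.27 FPKM in vehicle replicates 1 to 3 and at 2.61, 4.29 and 5.26 FPKM under S100A8/A9. Tm7sf2 was at 4.18, 3.66 and 3.09 FPKM under vehicle, against 4.01, 2.80 and 2.77 FPKM under S100A8/A9. The reductases thus stood in opposite order in replicates 1 and 3. Per length, the ratio of Lbr to Tm7sf2 was 0.655 and 0.649 in the vehicle and S100A8/A9 libraries of replicate 1, and 1.19 and 1.53 in those of replicate 2. In replicate 3 it was 1.70 and 1.90. Tm7sf2 had the lowest change of the 27 genes, at -0.15 ± 0.16 (SE) without the block and -0.15 ± 0.10 with it, with limma adjusted p-values of 0.9998 and 0.805.

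Among the regulators, the 4 mean changes were above 0 with a median of 0.028, and none passed. Srebf2 (chr15:82147181-82205379, forward strand), which encodes SREBP2, was at 31.4, 42.9 and 41.2 FPKM under vehicle, against 31.3, 42.5 and 46.3 FPKM under S100A8/A9. Both libraries of replicate 1 were the lowest of the 6, at almost the same level. Scap was at 10.7, 13.4 and 12.3 FPKM under vehicle, against 9.82, 11.4 and 15.8 FPKM under S100A8/A9, and only the replicate 3 pair had a ratio above 1, at 1.29. Insig1, itself a target of SREBP2, was at 23.5, 32.1 and 27.8 FPKM under vehicle, against 22.9, 33.8 and 28.7 FPKM under S100A8/A9. Its paralog Insig2, which is not held to depend on SREBP2, stayed between 3.54 and 4.32 FPKM in the 6 libraries. The ratio of Insig1 to Insig2 per length was 5.44 in both libraries of replicate 1, 9.06 and 8.89 in those of replicate 2, and 7.32 and 7.35 in those of replicate 3, vehicle first. It therefore differed between numbers and was nearly equal within each pair. In replicate 4, Srebf2 had a ratio of 1.10 (95% counting interval 1.05 to 1.15) and Insig1 a ratio of 1.00 (0.932 to 1.07).

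Of the transport and storage genes, Npc1 and Soat1 had the highest mean FPKM of the 28 genes over the 6 libraries. NPC1 exports cholesterol from late endosomes, and its transcript was at 59.8 ± 3.82 FPKM under vehicle, against 59.2 ± 4.93 FPKM under S100A8/A9 (SD, n = 3 each). Soat1, which encodes the enzyme that esterifies cholesterol for storage in droplets, was at 58.6, 52.1 and 45.0 FPKM under vehicle, against 60.0, 51.3 and 47.5 FPKM under S100A8/A9. The order of the numbers was the same in both groups, with replicate 1 highest. Stard4, a cytosolic sterol carrier, was at 8.44 ± 0.897 FPKM under vehicle, against 8.66 ± 0.99 FPKM under S100A8/A9 (SD, n = 3 each). In replicate 4 the ratios were 1.08 for Npc1 (95% counting interval 1.04 to 1.11) and 0.967 for Soat1 (0.95 to 0.984), where 8550 and 24831 vehicle reads stood behind the values.

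Ch25h, the 25-hydroxylase gene that interferon induces in macrophages, had the lowest mean FPKM of the 28 genes over replicates 1 to 3. It was at 0.455, 0.589 and 0.799 FPKM under vehicle, against 0.776, 0.640 and 1.26 FPKM under S100A8/A9. Each S100A8/A9 library lay above its partner, but the groups overlapped, and 1 library of the 6 exceeded 1 FPKM. Fitted without the filter on low values, its log2 change was 0.22 ± 0.19 (SE), with limma adjusted p-values of 0.951 without the block and 0.839 with it. In replicate 4, 45 reads stood behind the vehicle value and the ratio was 0.955 (95% counting interval 0.617 to 1.48). The ratios of replicates 1, 2 and 3 were 1.70, 1.09 and 1.58. They carry counting error of their own, of unknown size, so whether the pairs differ cannot be said.

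**Figure D2:**
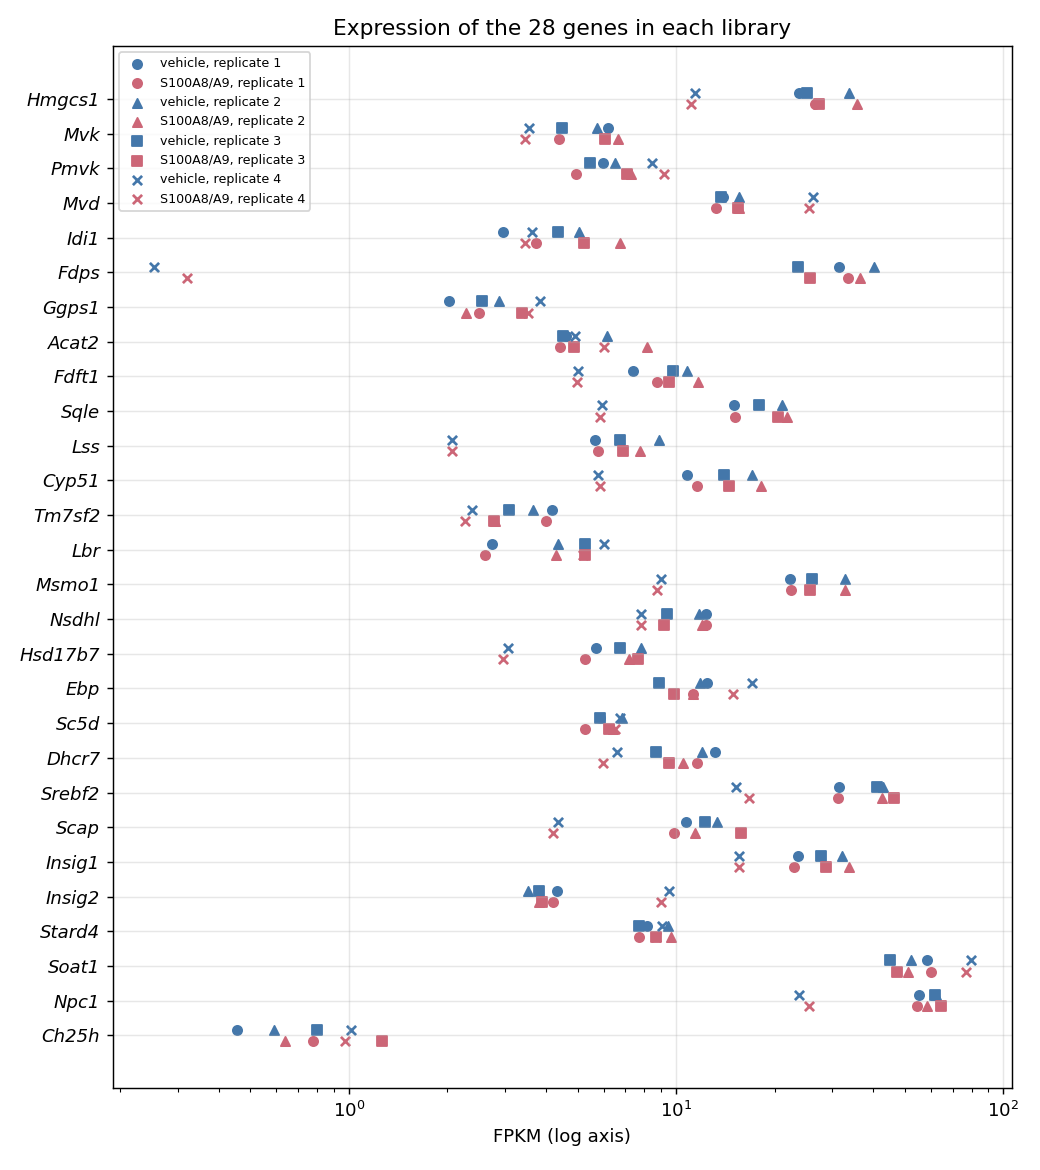
FPKM of each of the 28 genes in the 8 libraries, on a log axis. Blue marks vehicle and red S100A8/A9, circles, triangles and squares are replicates 1 to 3 and crosses replicate 4, whose values come from a separately made table. In replicates 1 to 3 the colors overlap for each gene, from Ch25h at 0.455 to 1.26 FPKM up to Npc1 at 54.6 to 64.4 FPKM.

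More of these genes differed by replicate number than by treatment. Libraries of the same number deviated together across all genes, and an F-test of the number in the blocked limma fit asked which genes differed between numbers 1, 2 and 3, with 2 libraries each. At an adjusted p under 0.05, 10 of the 27 genes were called, against 12.7% of all 11387 genes tested. They were Hmgcs1, Idi1, Fdps, Sqle, Cyp51, Msmo1, Lbr, Srebf2, Insig1 and Soat1, with adjusted p-values from 0.0144 (Cyp51) to 0.0449 (Soat1). Since the pairing by number was itself taken from these libraries, the F-test is no independent evidence for it. The count was 1 without the libraries of number 1, 4 without those of number 2 and 7 without those of number 3, and it was 0 without the filter, where 18 of all genes were called. With a common sum it was 14, where 1831 of all genes were called. With each of the other 3 scalings it was 12, where 1348 to 1395 of all genes were called.

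Of the 27 genes, 12 had both libraries of number 2 above the other 4 libraries, against 5.85% of all genes tested, a pattern described after the values were seen. Of the 27, 6 had this order and were also called in the F-test, against 0.694% of all genes. The 12 were Hmgcs1, Fdps, Acat2, Mvd, Fdft1, Sqle, Lss, Cyp51, Msmo1, Sc5d, Insig1 and Stard4. The enzymes among them ran from the thiolase Acat2 to Sc5d of the late sterol steps, with steps between them missing. Nsdhl, Ebp and Dhcr7 of the sterol arm instead averaged highest in number 1, Dhcr7 at 12.4, 11.2 and 9.10 FPKM over numbers 1, 2 and 3. Over 4 other scalings of the FPKM the count was 14 or 15 of 27, with 7.31% to 11.9% of all genes. Cyp51 averaged 11.2 FPKM over the libraries of number 1, 17.6 over those of number 2 and 14.3 over those of number 3. Msmo1 averaged 22.4, 32.9 and 25.8 FPKM in the same order, and Insig1 23.2, 32.9 and 28.2 FPKM. For these 3 genes, number 2 stood 1.57, 1.47 and 1.42 times as high as number 1, which was larger than any of their within-pair ratios. The 4 promoters shown are those of genes that were called in the F-test, were highest in number 2 and had a window in the set searched.

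In 13 of the 27 genes both libraries of number 1 were the lowest, against 24.9% of all genes, among them Srebf2 and Lbr. Lbr averaged 2.67 FPKM in number 1 and 5.26 FPKM in number 3, 1.97 times as high. Soat1, Tm7sf2, Nsdhl and Insig2 were the 4 genes with both libraries of number 1 highest, against 13.7% of all genes. Lbr was the 1 gene with both libraries of number 3 highest (22.3% of all genes), 5 genes had them lowest (9.41%), and 0 genes had both libraries of number 2 lowest (7.85%).

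Markers of other cells moved with the number as well. In order of replicate, mean log2(FPKM + 1) of 10 neutrophil markers was 1.05, 1.48 and 1.77 in the vehicle libraries, beside 1.05, 1.49 and 1.74 in those with S100A8/A9. Of these 10, 6 stayed under 1 FPKM in all 6 libraries, and Ltf was listed at 0 in 5 of them. Of the markers above it, S100a8 had this order, at mean FPKM of 10.5, 48.3 and 119 over numbers 1, 2 and 3, as had S100a9, at 1.62, 7.86 and 21.5. Csf3r was highest in number 1. Retnlg had the order under S100A8/A9, at 0.239, 0.703 and 1.02 FPKM, but not under vehicle, at 0.402, 1.01 and 0.645 FPKM. The mean log2(FPKM + 1) of 6 erythroid markers was 0.56, 1.10 and 3.40 in the vehicle libraries, beside 0.68, 1.04 and 3.22 in those with S100A8/A9. T and NK cell markers averaged between 0.62 and 0.74 over the 6 libraries and B cell markers between 0.37 and 0.65. The mean of the macrophage markers, given above, was highest in number 1, where 6 of the 8 had both libraries highest, while Cd14 ran the other way, at 101, 203 and 312 FPKM over numbers 1, 2 and 3. All 8 were called in the F-test, Cd14 included. Cell cycle genes averaged 2.10, 1.93 and 1.78 in the vehicle libraries, beside 1.98, 1.92 and 1.79 in the others, on this scale. The dendritic cell list was lowest in number 2, and no marker list here was highest there in both groups. The part of cell composition in the differences between numbers was not tested.

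**Figure D3:**
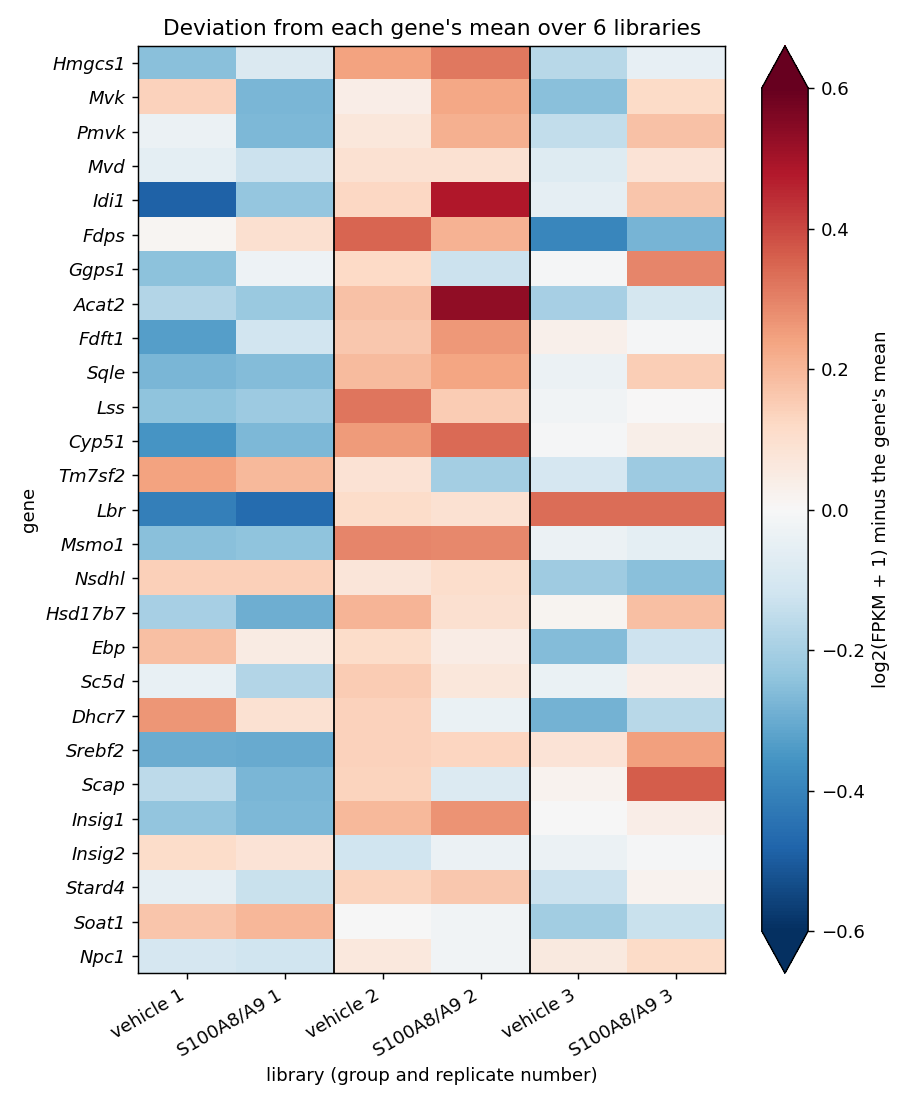
Deviation of log2(FPKM + 1) from each gene's mean over the 6 libraries of replicates 1 to 3 for the 27 tested genes, red above and blue below it, with the libraries of 1 number side by side. Both number 2 columns are red for the 12 genes highest there, such as Cyp51 (17.0 and 18.1 FPKM), while Lbr is blue in both number 1 columns (2.74 and 2.61 FPKM).

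Other genes of the pathway, from lists chosen for context, were likewise not called without the block. In the list of SREBP processing and sterol-regulated turnover, 0 of 13 tested genes passed with or without the block, with a median change of 0.036. Its gene with the smallest p without the block was Mbtps1, the site-1 protease that cleaves SREBPs. Mbtps1 was at 10.3, 12.0 and 12.0 FPKM under vehicle, against 12.6, 13.0 and 12.4 FPKM under S100A8/A9. Those groups did not overlap, but the limma adjusted p was 0.763 with the block, where Syvn1 had a smaller one, 0.720. In SREBP1 and fatty acid synthesis 0 of 13 tested genes passed, with a median of 0.0096. Lpin1, a phosphatidate phosphatase, had the smallest p without the block, with a log2 change of -0.20. With the block its limma adjusted p was 0.694, and Acss2 had a smaller one, 0.493. In isoprenoid use 0 of 13 passed (median 0.076), with Coq2 of ubiquinone synthesis at 0.22. In intracellular sterol handling 0 of 11 tested genes passed, with a median of 0.024. Stard3, a sterol carrier at the contacts between endosomes and the endoplasmic reticulum, came nearest. It was at 17.5, 15.4 and 13.2 FPKM under vehicle, against 22.3, 20.01 and 19.1 FPKM under S100A8/A9. Its groups did not overlap, and its log2 change of 0.40 had an SE of 0.12 without the block and 0.069 with it. The limma adjusted p-values were 0.9998 and 0.0958, and the replicate 4 values were 13.5 and 13.4 FPKM.

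For scale, 12 interferon-stimulated genes had a median log2 change of 1.39 in the same fit, and 10 of the 12 passed with the block, all higher with S100A8/A9, while 0 passed without it. With the block, 3 passed under median-of-ratios, upper-quartile or quantile scaling, 4 without the libraries of number 3, and 0 without the filter or with all 8 libraries. The list was chosen with those results known and is no independent evidence. Mx1, an antiviral GTPase, was its gene with the smallest p without the block, at 11.1, 10.5 and 10.9 FPKM under vehicle, against 24.6, 23.2 and 17.0 FPKM under S100A8/A9. In replicate 4 it was at 6.38 and 6.93 FPKM. Acss2, Fasn, Srebf1, Aacs and Lpin1 of fatty acid synthesis were called in the F-test of the number, 5 of 13 tested, and Fasn averaged 10.5, 16.4 and 15.2 FPKM in numbers 1, 2 and 3. Of the SREBP processing list 2 of 13 were called there, of isoprenoid use 0 of 13, of intracellular sterol handling 4 of 11 and of the interferon-stimulated genes 8 of 12, beside the 12.7% of all genes.

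The replicate 4 pair gave ratios of S100A8/A9 to vehicle from 0.863 (Lbr) to 1.26 (Fdps), with a median of 0.971 over the 28 genes, 8 of them above 1 and 20 below. Of the 26 tested genes with at least 1 FPKM there, 7 were above 1, against 55.1% of all genes. None of those 26 genes was 1.5-fold higher or lower, against 1.46% and 1.02% of all genes. The 95% counting interval lay wholly above 1 for 3 of the 26, namely Acat2, Srebf2 and Npc1, against 24.3% of all genes. It lay wholly below 1 for 4, namely Lbr, Dhcr7, Ebp and Soat1, against 15.3% of all genes.

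Levels could not be set across the tables as if they were 1 measurement, because the authors normalized them separately. In 9 of the 26 genes the mean FPKM in replicate 4 was under 0.5 of that in replicates 1 to 3, against 9.76% of all genes. Sqle averaged 18.5 FPKM in the first table and stood 3.15 times as high there as in replicate 4, and Msmo1 stood 3.05 times as high. Insig2 and Mvd went the other way, with Insig2 at 0.424 times and Mvd at 0.566 times their replicate 4 levels. The ratio of Insig1 to Insig2 was accordingly 1.64 and 1.73 in the replicate 4 libraries, and that of Lbr to Tm7sf2 was 2.53 and 2.30. Fdps stood apart, at 0.253 and 0.320 FPKM in replicate 4, from 34 reads in the vehicle library, and 111 times as high in the first table. Fdps (chr3:89093588-89101959, reverse strand, mm10) shares 1124 exonic bases, 26.7% of its exon length, with the annotated gene Gm43738 on the same strand. Stretches at least 95% identical to its transcripts are annotated in 5 further genes, the longest being 1066 bases in the processed pseudogene Gm5873. The part of such shared sequence in the difference between tables was not tested, and Fdps values are uncertain in both.

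**Figure D4:**
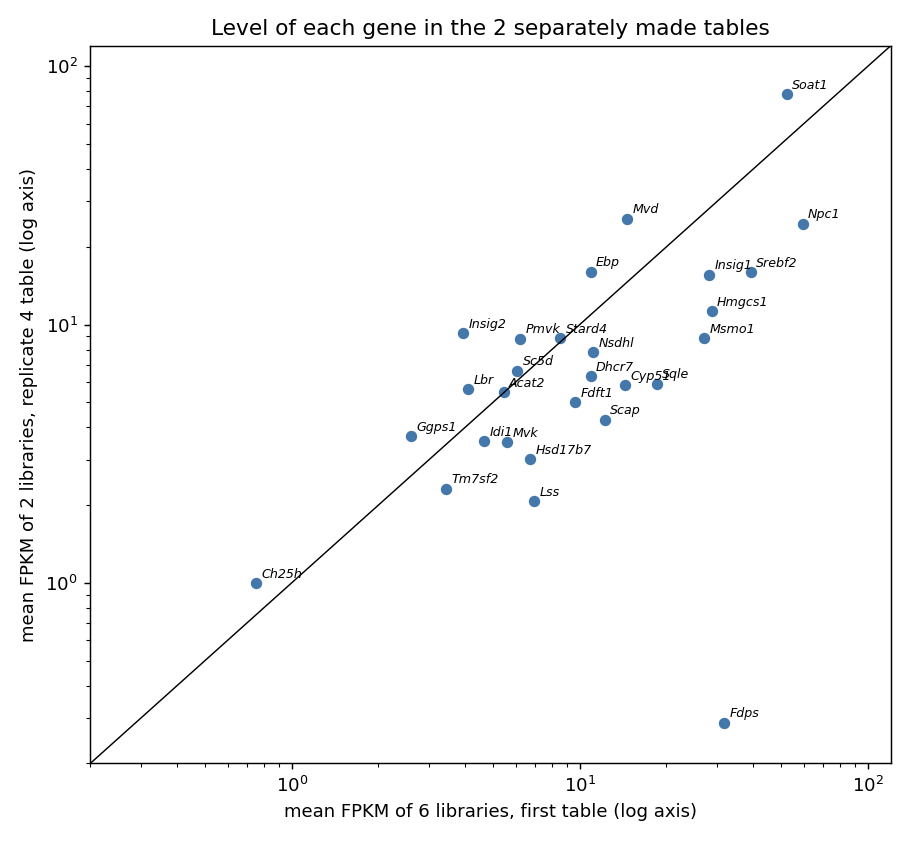
Mean FPKM of each of the 28 genes over the 6 libraries of the first table (horizontal) against the mean over the 2 replicate 4 libraries (vertical), both on log axes, with the line of equal values. Fdps lies far below the line (0.253 and 0.320 FPKM in replicate 4), and Insig2 and Mvd are among the 11 genes above it.

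A further 6 genes had stretches of at least 100 bases at 95% identity or more in another gene, so that reads could have been split. These were Idi1, Ggps1, Fdft1 and Insig1, each with a processed pseudogene as its longest match, Acat2 with the protein-coding gene Acat3 (1477 bases at 97.7% identity), and Soat1, whose matches lie in 43 genes and reach 142 bases. Exons of 10 genes, among them Hmgcs1 (557 bases), Fdft1 (774 bases, with Ctsb), Lbr (440 bases) and Scap (985 bases), overlap a gene on the opposite strand, and 532 exonic bases of Tm7sf2 are shared with Vps51 on the same strand. No strand marking is stated for the libraries, so reads of such overlaps cannot be told apart.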

How the data were processed

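Libraries were made from fragmented, oligo(dT)-selected RNA and read by Illumina sequencing, per the labels' protocols. The mm10 build is named in the submitters' processing notes, as are DESeq2 1.34.0, Subread, featureCounts and HISAT2, with no role or order. The authors deposited gene-level values that were read here as FPKM from their size and steps, since neither headers nor labels name the unit. Replicate 4 was deposited as a separate table of 24848 genes, 24388 of them also in the first table. In replicate 4, 98.55% and 98.77% of values worth up to 20 reads were whole reads within 0.01, given GENCODE M21 exon lengths, against 5.33% to 6.14% in replicates 1 to 3.

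The genes and lists were chosen with earlier results of these data known. The planned test was limma-trend (limma 3.58.1, R 4.3.3) on log2(FPKM + 1) of replicates 1 to 3 with treatment as its 1 term, two-sided, over genes reaching 1 FPKM in 3 or more of 6 libraries, with Benjamini-Hochberg adjustment over all 11387 genes and a threshold of 0.05. Fits were run on simulated data, whose outcome is not given here. The simulated spread between numbers was set equal to the residual spread, so it does not cover genes whose numbers differ more. All 28 genes are named, and of each other list the 1 gene with the smallest p without the block, as none was called. Genes of other lists called in the F-test, and single markers, were named after their values were seen. Deviations from group means correlated at 0.59, 0.25 and 0.52 between libraries of the same number and from -0.53 to -0.01 between others, over genes, so numbers were treated as pairs. Such deviations cancel within a group, so the negative values partly follow from the positive ones and add no separate evidence. P-values measure the spread between these libraries, which may be technical. Replicate 4 reads were FPKM times exon length over the value of 1 read, with exact (Clopper-Pearson) intervals on their ratio. Near copies were found with BLAST 2.17.0 on GENCODE M21 transcripts.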

Additional observations from a re-analysis of the deposited data

Results flagged for a closer look

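Over the 4 libraries of a group, 3 values stood far from the other 3 by Dixon's criterion, out of 56 groups of 4 examined. In replicate 4, Mvd stood at 26.1 FPKM in the vehicle library. Insig2 stood at 9.53 FPKM in the vehicle library of replicate 4 and at 9.01 FPKM in its S100A8/A9 partner. Chance alone marks about 1 group in 20. Each of the 3 is a replicate 4 library, from the separately made table, so the table and the library cannot be told apart.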

How the results depend on the processing

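None of the 27 tested genes was called between S100A8/A9 and vehicle under any of the 26 alternatives in which it was tested. Under the filter of 5 FPKM 22 of them were tested, without Ggps1, Acat2, Tm7sf2, Lbr and Insig2. Log2 changes this near 0 changed sign easily. Each of the other scalings gave the same estimate with and without the replicate block. With a common sum, the changes of Fdps and Scap became -0.00035 and -0.015. With median-of-ratios factors, those of Fdps, Scap, Insig1 and Soat1 became -0.0088, -0.024, -0.0011 and -0.00047. With quantile normalization, those of Mvd, Fdps, Srebf2, Scap, Insig1, Stard4 and Soat1 became -0.023, -0.049, -0.025, -0.053, -0.036, -0.0014 and -0.026. With upper-quartile factors, those of Mvk, Mvd, Fdps, Srebf2, Scap, Insig1, Insig2, Stard4 and Soat1 became -0.0019, -0.022, -0.035, -0.0061, -0.049, -0.028, -0.018, -0.018 and -0.028. With all 8 libraries, those of Scap and Npc1 became -0.0068 and 0.013. The median over all genes was 0.025 as deposited and 0.0066, -0.0013, -0.012 and -0.025 with the common sum, median-of-ratios, quantile and upper-quartile scaling.

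Leaving out libraries or replicate numbers in turn changed the sign in each of the 27 genes except Idi1, which ran from 0.10 (without vehicle replicate 1 or S100A8/A9 replicate 2) to 0.46 (without S100A8/A9 replicate 1), and Tm7sf2, which ran from -0.29 (without S100A8/A9 replicate 1) to -0.071 (without vehicle replicate 1). The ranges were -0.0093 to 0.27 for Hmgcs1, -0.11 to 0.28 for Mvk, -0.044 to 0.23 for Pmvk, -0.035 to 0.10 for Mvd, -0.17 to 0.20 for Fdps, -0.033 to 0.26 for Ggps1 and -0.097 to 0.28 for Acat2. In the sterol arm they were -0.051 to 0.20 for Fdft1, -0.036 to 0.23 for Sqle, -0.17 to 0.11 for Lss, -0.089 to 0.22 for Cyp51, -0.23 to 0.20 for Lbr, -0.15 to 0.14 for Msmo1, -0.11 to 0.12 for Nsdhl, -0.11 to 0.13 for Hsd17b7, -0.16 to 0.065 for Ebp, -0.11 to 0.03 for Sc5d and -0.24 to 0.032 for Dhcr7. For the others they were -0.087 to 0.21 for Srebf2, -0.18 to 0.14 for Scap, -0.10 to 0.17 for Insig1, -0.024 to 0.091 for Insig2, -0.04 to 0.11 for Stard4, -0.068 to 0.12 for Soat1 and -0.078 to 0.039 for Npc1. The median over the 27 genes, 0.028 in all 6 libraries, ran from -0.049 (without S100A8/A9 replicate 2) to 0.13 (without S100A8/A9 replicate 1), and was 0.11 without vehicle replicate 2.

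Over all genes the count called was 0 without the replicate block and 59 with it. With the block it was 39 with a common sum and 3 with each of the other 3 scalings. It was 62 with a pseudocount of 0.1 and 79 with a filter of 5 FPKM, both blocked fits chosen after seeing the data. Without the filter, or with all 8 libraries, the blocked count was 0. Leaving out a number with the block gave 7 to 98, and leaving out a single library without the block gave 0 or 1. In the other pathway lists, the interferon-stimulated genes included, the count called was 0 without the block and 10 with it. With the block it was 10 with a common sum or a pseudocount of 0.1, 3 with the other 3 scalings and 12 with a filter of 5 FPKM. Without the filter, or with all 8 libraries, the blocked count was 0. Leaving out a number with the block gave 4 to 12, and leaving out a single library without the block gave 0. The number of genes differing between replicate numbers was 1450, against 18 without the filter, 8556 with all 8 libraries, where the number also holds the difference between tables, and 331 to 1847 with a number left out. It was 1831 with a common sum and 1348 to 1395 with the other 3 scalings. Of the 27 genes 10 were called in this F-test, against 0 without the filter, 24 with all 8 libraries and 1 to 7 with a number left out. Their count was 14 with a common sum, 12 with each of the other 3 scalings and 11 of 22 with a filter of 5 FPKM. Genes higher in each of the 3 pairs numbered 4, against 2 with upper-quartile factors, 1 with quantile normalization and 1 when the replicate 4 pair was required as well. The cause of these changes was not tested. The depth of replicates 1 to 3 is unknown, and its part in these counts was not tested.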
